A study of Homo sapiens with 12 samples.

Results

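The genes described here are 43 estrogen-induced targets taken by symbol from a list of such targets, 43 of the 25370 genes in the deposited count table. The list was chosen with earlier results of these data known. All 43 were in the table and none had a mean under the minimum of 0.3 CPM, which is a gene's count scaled to the library's total on genes and normalised between libraries. The lowest were SGK1 at 0.395 CPM and KRT13 at 0.443 CPM. By what their products do, they fall into 9 transcription factors and coregulators, 8 secreted or secretory-pathway proteins, 10 receptors and signalling proteins, 9 transporters, channels, scaffolds and enzymes, and 7 chaperones, ubiquitin, repair and structural proteins.

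T47D is an established breast carcinoma line that expresses the estrogen receptor, E2 is 17β-estradiol, and anastrozole blocks aromatase, the enzyme encoded by CYP19A1. The cells were kept in charcoal-stripped serum and then without serum, which lowers the estrogen they meet, and were treated with vehicle, anastrozole at 10 nM, E2 at 0.1 nM, or anastrozole at 10 nM plus E2 at 0.1 nM. RNA-seq was made of 3 replicates (a, b and c) in each of these 4 groups, and the labels give 12 hours of treatment while the study's methods give a longer time. The labels name polyA RNA and the library protocol total RNA, and the study speaks of 3 independent experiments for gene expression in general, while neither the labels nor the account of the RNA-seq say how these replicates were made.

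Reads counted on genes numbered 12383933, 13146717 and 12839630 with vehicle, and 13930525, 9914253 and 11317347 with anastrozole, each in the order a, b, c. They numbered 12665826, 17009776 and 14541688 with E2, and 16158706, 14352011 and 13944949 with anastrozole plus E2. A count of 3 then corresponds to between 0.177 and 0.303 CPM, a floor that covers counting error only. SGK1 was at or under that floor in 2 libraries and KRT13 in 1.

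Estradiol acts through ERα, a nuclear receptor that binds DNA at estrogen response elements or through other factors such as AP-1 and Sp1, and recruits coactivators or corepressors. Its induced genes include other transcription factors, growth factor binding proteins and secreted peptides, and several serve as markers of an active receptor in breast cancer. Aromatase inhibitors lower estrogen by blocking its synthesis from androgens, so an inhibitor given with E2 itself meets estrogen that does not come from aromatase.

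The labelled cell line was checked by markers. The 6 luminal epithelial markers summed to between 5413 and 5825 CPM per library, with KRT8 the most abundant, and the 4 basal markers to between 2.5 and 3.61 CPM. ESR1, which encodes ERα, stood between 163 and 188 CPM. CYP19A1, the gene of the drug's target enzyme, had between 0 and 2 counts in every library, so its change was not measurable at this depth. In bulk RNA, a change in RNA per cell and a change in the share of cells that express a gene cannot be told apart.

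Levels of the members spanned a 12508-fold range in vehicle, measured as CPM per kb of exon. XBP1, the transcription factor of the unfolded protein response, was highest at 494 CPM per kb, followed by IGFBP5 at 323 and IGFBP4 at 235 CPM per kb, both binding proteins of insulin-like growth factors. SGK1, a serum- and glucocorticoid-regulated kinase, was lowest at 0.0395 CPM per kb, and the median was 16.9 CPM per kb. TFF1, a secreted trefoil peptide that is a classic estrogen-induced gene, had 3.36 CPM per kb, while PGR, the progesterone receptor, had 149 CPM per kb. Of the 43, 20 had a mean of at least 100 CPM and 7 a mean under 3 CPM.

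**Figure D1:**
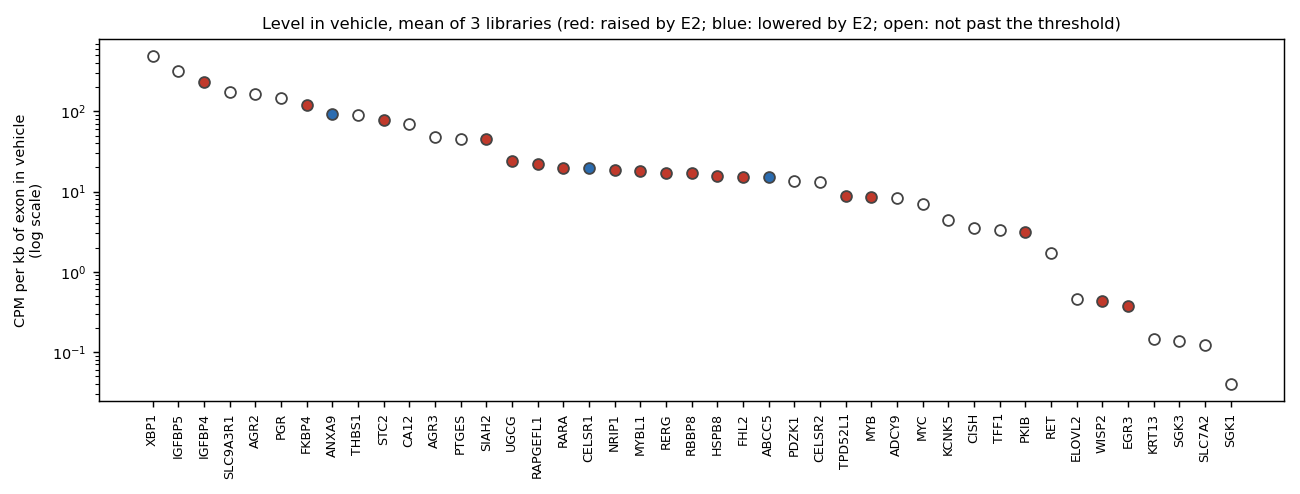
Mean level of each of the 43 genes in the 3 vehicle libraries, in CPM per kb of exon on a log scale, ordered from highest to lowest and coloured by the test of E2 against vehicle. XBP1, IGFBP5 and IGFBP4 lead and SGK1 is lowest, and genes raised by E2 occur along most of the range.

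Which members responded to E2 was asked by comparing the E2 libraries with vehicle. By edgeR's quasi-likelihood test, with p-values adjusted by Benjamini-Hochberg and a threshold of 0.05, 18 of 43 (41.9%) were raised, against 6.06% of all 21132 genes tested, and 3 (6.98%) were lowered, against 5.95% of all genes. The members' median log2 fold change was 0.14 against 0.00 for all genes, and 32 of 43 were above 0. After edgeR's filter on low counts 17 members were raised, against 1313 of 14579 genes. Members were chosen with earlier results of these data known, which can favour such shares. The largest log2 fold changes among the raised were 0.89 for WISP2, a secreted matricellular protein also named CCN5, and 0.75 for EGR3, an immediate early transcription factor, both at under 5 CPM. Among members at higher levels they were 0.44 for PKIB, 0.39 for MYBL1, 0.36 for RBBP8 and 0.35 for UGCG. In 20 of the 21 called, the 3 E2 libraries all lay on 1 side of the 3 vehicle libraries, the exception being TPD52L1. Having been called already favours such separation, which was not counted over all genes called. A total of 9 of the 21 stayed past the threshold in every alternative fit that kept all libraries of the comparison (MYBL1, IGFBP4, RERG, RAPGEFL1, ABCC5, UGCG, SIAH2, RBBP8 and ANXA9). With each library's trend on GC content removed, MYB (log2 fold change 0.15), NRIP1 (0.08), CELSR1 (0.02) and TPD52L1 (0.10) were no longer called, while RET (0.30) and AGR2 (-0.10) were. The members called then numbered 19 and all genes called 1600, against 21 and 2537 as fitted, and they were 15 and 1433 with DESeq2's test and 14 and 1379 with limma-voom.

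Which members responded to anastrozole alone was asked by comparing the anastrozole libraries with vehicle. By the same edgeR test, 1 member, UGCG, was raised (2.33% of members against 1.4% of all genes), and 4 were lowered (9.3% against 2.27%), namely SLC9A3R1, ADCY9, CELSR1 and PGR. The members' median log2 fold change was -0.04 against 0.00 for all genes. This count of 5 depended on single libraries: it was 3 without vehicle a, 0 without vehicle c, 0 without anastrozole a, 1 without anastrozole b and 9 without anastrozole c. It was 2 with DESeq2's test, 0 with limma-voom, and 2 after edgeR's filter on low counts, where all genes called numbered 238, 15 and 419, against 776 as fitted. In no comparison were calls over all genes counted with a library left out. An unadjusted p under the same threshold was found for 15 members, and for 3198 of the 21132 genes tested. With the GC trend removed PGR (log2 fold change -0.18) and SLC9A3R1 (-0.11) passed, UGCG (0.12), ADCY9 (-0.15) and CELSR1 (-0.05) did not, and IGFBP4 (0.12), THBS1 (-0.11) and AGR2 (-0.12) did, and all genes called numbered 612.

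The combination was compared with the same vehicle libraries, so its changes and those of E2 alone share 1 reference. By edgeR's test it raised 20 of 43 members (46.5%, against 2.71% of all genes) and lowered 2 (4.65%, against 2.33%), with a median log2 fold change of 0.16 against 0.00 for all genes. The shared vehicle libraries favour agreement between the comparisons. How many of all genes raised by E2 the combination also raised was not counted. Of the 18 members raised by E2 alone, 16 were also raised by the combination, and all 18 had a log2 fold change above 0. The others were PKIB, an inhibitor of protein kinase A (log2 fold change 0.26, standard error 0.11, edgeR adjusted p = 0.153), and HSPB8, a small heat shock protein (log2 fold change 0.15, standard error 0.05, edgeR adjusted p = 0.0657). With the GC trend removed HSPB8 passed (0.15), as did SLC9A3R1 (0.10). MYC, AGR3, RET and CISH passed with the combination and not with E2 alone, where their log2 fold changes were 0.11, 0.14, 0.25 and 0.04, and only MYC and CISH also passed in the direct test of the combination against E2. RET passed with E2 once the GC trend was removed (0.30). Under every alternative fit that kept all libraries 13 of the 22 were called, namely MYC, EGR3, RARA, STC2, IGFBP4, WISP2, RERG, RAPGEFL1, ABCC5, FKBP4, SIAH2, RBBP8 and ANXA9. The other 9 were lost in at least 1 such fit: MYBL1, UGCG and FHL2 with limma-voom only, and MYB, NRIP1, AGR3, RET, CISH and TPD52L1 in more than 1. Members called were 16 with DESeq2's test, 13 with limma-voom and 24 with the GC trend removed, and all genes called 463, 347 and 1273, against 1065 as fitted.

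**Figure D2:**
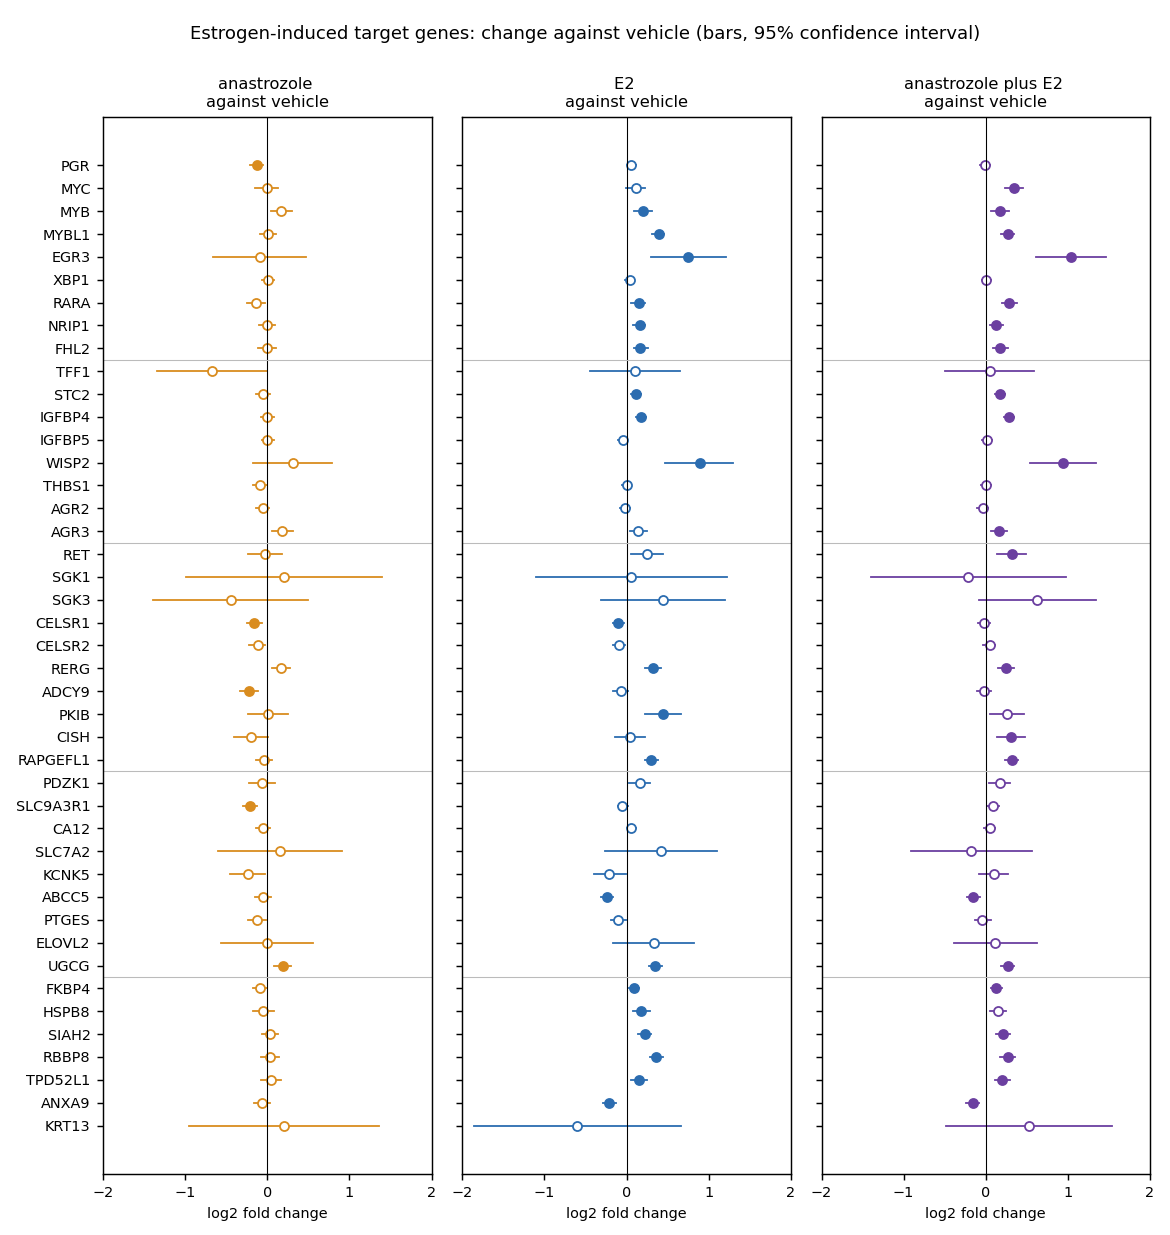
Log2 fold change of each of the 43 genes against vehicle for anastrozole, E2 and anastrozole plus E2, with 3 libraries in each group. E2 and the combination lie to the same side of 0 for all 18 genes that E2 raised. The shared vehicle libraries favour such agreement.

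Whether the combination keeps the E2 response was tested directly against E2 alone. By edgeR's test, 7 members were higher with the combination (16.3%, against 3.23% of all genes) and 1 was lower (2.33%, against 3.51%), with a median of 0.02 against 0.00. Among the 18 raised by E2, RARA and IGFBP4 were higher still, MYBL1 was lower, and 15 did not pass the threshold. These 18 were picked by their E2 values, which also enter this comparison. The same split was not made for all genes raised by E2. The other members that were higher were MYC, CELSR2, CISH, SLC9A3R1 and KCNK5. With the GC trend removed only MYC passed (0.20), while KCNK5 (0.22) and CISH (0.20) kept much of their log2 fold change without passing and the others lay between -0.05 and 0.03. All genes called then numbered 196 of 21132 (0.468% raised and 0.459% lowered), against 1424 as counted. The count was 5 without E2 c, 4 without anastrozole plus E2 c, 4 with DESeq2's test, 2 with limma-voom and 5 with all 12 libraries in 1 fit, and for these last 3 all genes called numbered 647, 451 and 824. Across the 43 genes, Spearman's rho between this log2 fold change and GC content was 0.66 as counted and 0.02 with the trend removed, a description over genes, which are not independent replicates. Removing the trend itself shrinks such a rho. As counted, rho was also -0.42 for E2 against vehicle and -0.45 for anastrozole against vehicle, 0.07 for the combination against vehicle and 0.05 for anastrozole against E2.

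**Figure D3:**
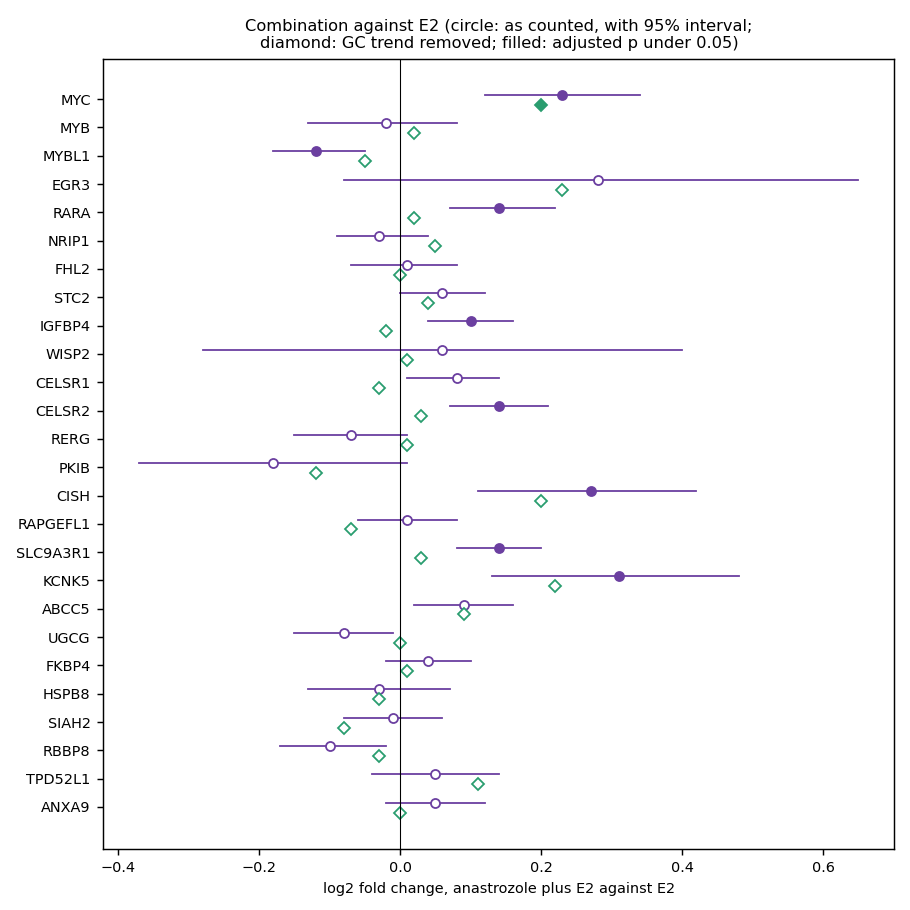
Log2 fold change of anastrozole plus E2 against E2, as counted (circles, with 95% intervals) and with the GC trend removed (diamonds), for members called with E2 against vehicle or in this direct comparison. Filled symbols pass the threshold, and MYC alone passes both ways.

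Anastrozole alone and E2 alone were also compared directly. By edgeR's test, 15 members were lower with anastrozole (34.9%, against 0.705% of all genes) and 1, ABCC5, was higher (2.33%, against 0.62%), with a median log2 fold change of -0.16 against 0.00. The count of 16 was 10 without anastrozole b, 6 without E2 b and 8 without E2 c, 9 with DESeq2's test and 8 with limma-voom. All genes called numbered 107 and 70 in these last fits, against 280 as fitted, and with the GC trend removed 20 members and 495 genes were called. PGR, MYBL1, RARA, STC2, IGFBP4, RAPGEFL1, FKBP4 and RBBP8 passed in every alternative fit that kept all libraries. Of these, STC2 was lost without E2 b (log2 fold change -0.16) or E2 c (log2 fold change -0.16), IGFBP4 without E2 b (log2 fold change -0.16) and FKBP4 without E2 b (log2 fold change -0.17). ABCC5 was lost without E2 a (log2 fold change 0.18) or E2 c (log2 fold change 0.17), SIAH2 without E2 b (log2 fold change -0.16) or E2 c (log2 fold change -0.18), NRIP1 without anastrozole b (log2 fold change -0.15), E2 b (log2 fold change -0.16) or E2 c (log2 fold change -0.13), SLC9A3R1 without anastrozole a (log2 fold change -0.11), anastrozole b (log2 fold change -0.14) or E2 b (log2 fold change -0.14) and UGCG without anastrozole b (log2 fold change -0.17), E2 b (log2 fold change -0.17) or E2 c (log2 fold change -0.12). FHL2 was lost without anastrozole b (log2 fold change -0.18), E2 a (log2 fold change -0.12), E2 b (log2 fold change -0.20) or E2 c (log2 fold change -0.20), HSPB8 without anastrozole b (log2 fold change -0.21), anastrozole c (log2 fold change -0.20), E2 a (log2 fold change -0.23), E2 b (log2 fold change -0.22) or E2 c (log2 fold change -0.22), and PKIB without anastrozole a (log2 fold change -0.41), anastrozole b (log2 fold change -0.39), E2 a (log2 fold change -0.38), E2 b (log2 fold change -0.45) or E2 c (log2 fold change -0.46).

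The interaction asks whether the E2 effect with anastrozole present differs from the E2 effect without it, fitted on all 12 libraries. By edgeR's test it was above 0 for 8 members (18.6%, against 5.93% of all genes) and below 0 for 2 (4.65%, against 4.93%), with a median of 0.06 against 0.00. The 8 were SLC9A3R1, CELSR2, CELSR1, RARA, KCNK5, ADCY9, CISH and PTGES, and the others were UGCG and RERG. None of these 10 passed with the GC trend removed, while PGR, IGFBP4, THBS1, AGR2 and SIAH2 then did. All genes called went from 2295 of 21132 to 554 (265 above 0 and 289 below). As counted, RERG was lost without anastrozole a (interaction -0.21) or E2 a (interaction -0.20), and PTGES, which makes prostaglandin E, without vehicle a (interaction 0.16), vehicle c (interaction 0.19), anastrozole a (interaction 0.20), anastrozole c (interaction 0.15), E2 a (interaction 0.17), E2 c (interaction 0.20), anastrozole plus E2 a (interaction 0.20), anastrozole plus E2 b (interaction 0.18) or anastrozole plus E2 c (interaction 0.21). Across the 43 genes, rho between the interaction and GC content was 0.65 as counted and 0.15 with the trend removed. Removing the trend itself shrinks this rho, and would also take out real changes related to GC content.

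**Figure D4:**
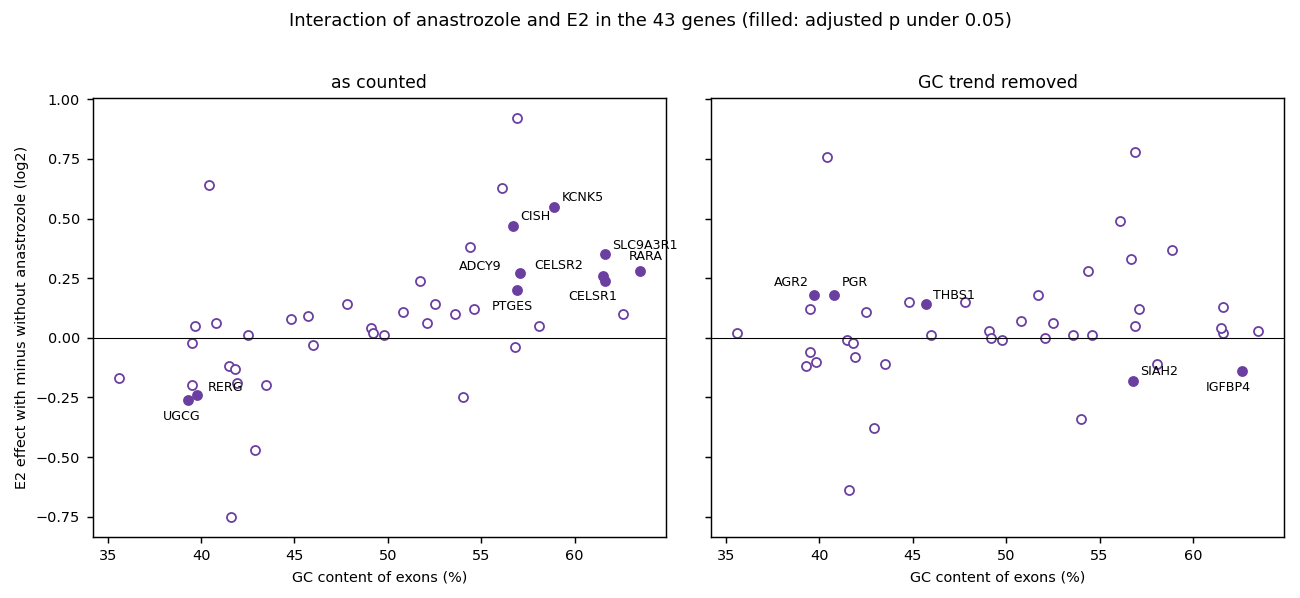
Interaction of anastrozole and E2 on the log2 scale against the GC content of exons for the 43 genes, as counted and with each library's GC trend removed. As counted, the 8 genes above 0 that pass the test lie at high GC content and the pair below 0 at low GC content.

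Of the 9 transcription factors and coregulators, E2 raised 6 (66.7%, against 6.06% of all genes) and lowered 0 (against 5.95%), the combination raised 7 (77.8%, against 2.71%) and lowered 0 (against 2.33%), and anastrozole alone raised 0 (against 1.4%) and lowered 1 (11.1%, against 2.27%). After removal of the GC trend E2 raised 4 (44.4%, against 4.01% of all genes), the combination 7 (77.8%, against 3.37%) and anastrozole 0 (against 1.52%), and anastrozole alone lowered 1 (11.1%, against 1.37%). MYBL1 stood at 118, 143 and 130 CPM with vehicle, 133, 129 and 130 CPM under anastrozole, 172, 165 and 174 CPM under E2, and 154, 162 and 155 CPM under both. Every library with E2, alone or in the combination, lay above every library without it, and the combination libraries all lay below those of E2 alone. MYBL1 (ENSG00000185697, chr8:67474410-67526482, minus strand, GRCh37), a MYB-family factor, rose with E2 (log2 fold change 0.39, standard error 0.04, edgeR adjusted p = 5.03e-20) and with the combination (log2 fold change 0.27, standard error 0.04, edgeR adjusted p = 1.13e-08), the latter call being lost with limma-voom. The combination was lower than E2 alone (log2 fold change -0.12, standard error 0.03, edgeR adjusted p = 0.0204), a call that was lost without E2 a (log2 fold change -0.11), E2 c (log2 fold change -0.10), anastrozole plus E2 a (log2 fold change -0.10) or anastrozole plus E2 c (log2 fold change -0.10), and was -0.05 with the GC trend removed.

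RARA stood at 95.5, 88.4 and 95.4 CPM with vehicle, 80.1, 87.5 and 86.7 CPM under anastrozole, 102, 100 and 107 CPM under E2, and 114, 114 and 113 CPM under both. RARA (ENSG00000131759, chr17:38465432-38513895, plus strand, GRCh37), the retinoic acid receptor α, was lowest with anastrozole and highest with the combination, and no group overlapped another. It rose with E2 (log2 fold change 0.15, standard error 0.04, edgeR adjusted p = 0.0114), though not past the threshold without vehicle b (log2 fold change 0.11) or E2 c (log2 fold change 0.12), and by 0.28 with the GC trend removed, and it rose with the combination (log2 fold change 0.29, standard error 0.04, edgeR adjusted p = 1.7e-08). The direct difference between them (log2 fold change 0.14, standard error 0.04, edgeR adjusted p = 0.00744) was lost without E2 b (log2 fold change 0.12), and was 0.02 with the GC trend removed. Anastrozole against vehicle did not pass for RARA (log2 fold change -0.14, standard error 0.06, edgeR adjusted p = 0.16). A gene of the count table on the opposite strand shares 11.7% of the exon bases of RARA, so its count is uncertain if strand was not used.

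NRIP1 stood at 156, 165 and 157 CPM with vehicle, 159, 157 and 161 CPM under anastrozole, 172, 177 and 184 CPM under E2, and 164, 180 and 179 CPM under both. The E2 libraries of NRIP1, a corepressor of nuclear receptors also known as RIP140, all lay above vehicle, while combination library a lay within the vehicle range. FHL2 stood at 99.7, 105 and 99.1 CPM with vehicle, 104, 102 and 97.5 CPM under anastrozole, 123, 110 and 111 CPM under E2, and 117, 114 and 114 CPM under both. For FHL2, a LIM-domain coregulator, both groups given E2 lay above both groups that were not. NRIP1 rose with E2 (log2 fold change 0.16, standard error 0.04, edgeR adjusted p = 0.000865) and with the combination (log2 fold change 0.13, standard error 0.04, edgeR adjusted p = 0.0278), the latter call being lost without vehicle a (log2 fold change 0.12), vehicle c (log2 fold change 0.12), anastrozole plus E2 b (log2 fold change 0.11) or anastrozole plus E2 c (log2 fold change 0.11). FHL2 rose with E2 (log2 fold change 0.17, standard error 0.04, edgeR adjusted p = 0.00133), a call lost without E2 a (log2 fold change 0.12), and with the combination (log2 fold change 0.18, standard error 0.04, edgeR adjusted p = 0.00185), a call lost with limma-voom.

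MYC stood at 43.1, 44.7 and 39.4 CPM with vehicle, 42, 42.6 and 41.8 CPM under anastrozole, 45.7, 45.8 and 45.5 CPM under E2, and 52.8, 55 and 53 CPM under both. MYC, a transcription factor that drives proliferation, was highest in the 3 combination libraries, which lay above all others, and its E2 libraries stood just above vehicle. MYC (ENSG00000136997, chr8:128747680-128755197, plus strand, GRCh37) rose with the combination (log2 fold change 0.34, standard error 0.06, edgeR adjusted p = 3.68e-07) and its change with E2 did not pass (log2 fold change 0.11, standard error 0.06, edgeR adjusted p = 0.276). The direct difference was 0.23 with standard error 0.06 (edgeR adjusted p = 0.00199), and adjusted p ranged from 0.000733 to 0.0302 over its alternatives.

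PGR stood at 2038, 2352 and 2196 CPM with vehicle, 1952, 2025 and 2034 CPM under anastrozole, 2302, 2254 and 2322 CPM under E2, and 2033, 2256 and 2243 CPM under both. The anastrozole libraries all lay below vehicle, by little in the nearest pair, and both groups given E2 overlapped vehicle. PGR (ENSG00000082175, chr11:100900355-101000544, minus strand, GRCh37) fell with anastrozole (log2 fold change -0.13, standard error 0.04, edgeR adjusted p = 0.0262), a call lost without vehicle b (log2 fold change -0.08), vehicle c (log2 fold change -0.13), anastrozole a (log2 fold change -0.11) or anastrozole b (log2 fold change -0.14), and was lower with anastrozole than with E2 (log2 fold change -0.19, standard error 0.03, edgeR adjusted p = 7.34e-06). E2 against vehicle did not pass (log2 fold change 0.06, standard error 0.03, edgeR adjusted p = 0.101). MYB, another MYB-family factor, rose with E2 (log2 fold change 0.20) and the combination (0.18), and EGR3 did so at 0.75 and 1.04. Under anastrozole alone MYB gave a change of similar size that did not pass (log2 fold change 0.17, standard error 0.07, edgeR adjusted p = 0.135), and all libraries of the 3 treated groups lay above those of vehicle. The MYB calls were lost without E2 b (log2 fold change 0.18) for E2 and without vehicle b (log2 fold change 0.17), vehicle c (log2 fold change 0.17), anastrozole plus E2 a (log2 fold change 0.17), anastrozole plus E2 b (log2 fold change 0.17) or anastrozole plus E2 c (log2 fold change 0.20) for the combination. The E2 call of EGR3 was lost without vehicle b (log2 fold change 0.66), vehicle c (log2 fold change 0.70) or E2 b (log2 fold change 0.60). XBP1 gave a log2 fold change of 0.04 with E2, with a 95% interval of -0.02 to 0.09.

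Promoters were searched for letters that ERα, Sp1 or AP-1 are known to bind, since E2 raised 6 of these 9 genes. RefSeq windows (GRCh38.p14) of 250 bases before to 50 after a start were found for 31 of the 43 members, 48 windows in all. The missing members were CELSR1, FKBP4, ADCY9, EGR3, TFF1, SGK3, KRT13, MYBL1, WISP2, MYC, SLC7A2 and RERG. The estrogen response element GGTCA, 3 bases, TGACC was searched on both strands with at most 1 of its 10 fixed bases changed, and 0 of the 48 windows held it, against 0.817% of 35116 windows of all genes. A single arm of it, GGTCA or TGACC, was in 15 of 48 windows (31.2%) of 12 members, against 37.4% of all windows. GGGCGG or CCGCCC, letters that Sp1 binds, was in 35 of 48 windows (72.9%) of 24 members, against 45% of all, and TGANTCA, letters that AP-1 binds, was in 2.08% of member windows, those of PKIB, against 7.71% of all. These are descriptions with no test. At a share of 0.817% over all windows, 0 of 48 tells little. Windows of 1 gene can overlap, and elements outside the windows were not searched.

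The windows shown are those of members raised by E2 that hold a single arm of the element, which is in capitals, chosen after their values were seen. They are RAPGEFL1 (chr17:40177220-40177519, plus strand), RARA (chr17:40308930-40309229, plus strand), FHL2 (chr2:105399002-105399301, minus strand), NRIP1 (chr21:15064951-15065250, minus strand) and STC2 (chr5:173328365-173328664, minus strand), all GRCh38.p14. The window of RARA holds 3 such arms and each of the others 1.
RAPGEFL1: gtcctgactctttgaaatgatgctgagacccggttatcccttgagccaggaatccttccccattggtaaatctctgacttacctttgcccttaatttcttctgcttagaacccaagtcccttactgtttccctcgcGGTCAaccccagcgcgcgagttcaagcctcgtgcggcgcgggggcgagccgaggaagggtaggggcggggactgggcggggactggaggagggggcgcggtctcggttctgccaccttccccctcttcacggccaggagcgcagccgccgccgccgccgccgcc
RARA: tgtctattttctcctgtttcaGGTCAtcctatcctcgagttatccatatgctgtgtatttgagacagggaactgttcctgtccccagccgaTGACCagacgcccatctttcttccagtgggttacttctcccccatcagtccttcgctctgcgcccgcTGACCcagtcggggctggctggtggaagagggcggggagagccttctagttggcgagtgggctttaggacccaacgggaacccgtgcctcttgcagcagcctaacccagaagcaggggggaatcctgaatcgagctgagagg
FHL2: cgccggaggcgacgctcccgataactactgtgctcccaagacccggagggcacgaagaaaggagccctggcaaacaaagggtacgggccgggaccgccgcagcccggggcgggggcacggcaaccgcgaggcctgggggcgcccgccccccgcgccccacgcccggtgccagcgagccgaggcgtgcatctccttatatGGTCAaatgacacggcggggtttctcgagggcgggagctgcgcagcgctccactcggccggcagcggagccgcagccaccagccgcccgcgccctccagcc
NRIP1: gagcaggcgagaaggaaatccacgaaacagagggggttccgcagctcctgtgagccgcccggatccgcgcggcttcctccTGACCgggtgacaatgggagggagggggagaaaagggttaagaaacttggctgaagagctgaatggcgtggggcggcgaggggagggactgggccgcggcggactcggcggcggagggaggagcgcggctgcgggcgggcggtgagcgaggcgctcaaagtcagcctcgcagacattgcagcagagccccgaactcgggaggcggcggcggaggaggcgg
STC2: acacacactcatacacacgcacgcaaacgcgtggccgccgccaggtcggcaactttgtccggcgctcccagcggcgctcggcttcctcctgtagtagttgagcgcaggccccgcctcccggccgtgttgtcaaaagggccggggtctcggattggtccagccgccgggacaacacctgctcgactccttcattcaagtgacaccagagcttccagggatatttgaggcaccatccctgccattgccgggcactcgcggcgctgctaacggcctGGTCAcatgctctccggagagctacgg

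Of the 8 secreted and secretory-pathway genes, E2 raised 3 (37.5%, against 6.06% of all genes) and lowered 0 (against 5.95%), the combination raised 4 (50%, against 2.71%) and lowered 0 (against 2.33%), and 0 passed with anastrozole alone (against 1.4% raised and 2.27% lowered). Without the GC trend 3 passed with anastrozole, IGFBP4 being raised (12.5%, against 1.52%) and THBS1 and AGR2 lowered (25%, against 1.37%). E2 then raised 3 (37.5%, against 4.01%) and lowered 1 (12.5%, against 3.56%), and the combination raised 4 (50%, against 3.37%). IGFBP4 stood at 516, 508 and 531 CPM with vehicle, 501, 520 and 533 CPM under anastrozole, 591, 599 and 576 CPM under E2, and 638, 616 and 637 CPM under both. The vehicle and anastrozole libraries overlapped, the E2 libraries lay above them, and the combination libraries lay highest with no overlap. IGFBP4 (ENSG00000141753, chr17:38599702-38613977, plus strand, GRCh37) rose with E2 (log2 fold change 0.18, standard error 0.03, edgeR adjusted p = 1.24e-07) and the combination (log2 fold change 0.28, standard error 0.03, edgeR adjusted p = 8.29e-15), and its E2 change was 0.31 with the GC trend removed. The direct difference (log2 fold change 0.10, standard error 0.03, edgeR adjusted p = 0.0184) was lost without E2 c (log2 fold change 0.08) or anastrozole plus E2 c (log2 fold change 0.09) and was -0.02 with the GC trend removed.

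STC2 stood at 420, 388 and 395 CPM with vehicle, 387, 394 and 377 CPM under anastrozole, 428, 437 and 439 CPM under E2, and 451, 453 and 455 CPM under both. STC2, a secreted glycoprotein, was lowest in libraries without E2, and combination libraries lay above those of E2 alone, by a difference that did not pass (log2 fold change 0.06, standard error 0.03, edgeR adjusted p = 0.276). STC2 (ENSG00000113739, chr5:172741726-172755450, minus strand, GRCh37) rose with E2 (log2 fold change 0.12, standard error 0.03, edgeR adjusted p = 0.00381), a call lost without vehicle c (log2 fold change 0.11), and with the combination (log2 fold change 0.18, standard error 0.03, edgeR adjusted p = 2.46e-05). TFF1 stood at 2.1, 1.22 and 1.63 CPM with vehicle, 0.866, 1.31 and 0.96 CPM under anastrozole, 1.34, 2.24 and 1.6 CPM under E2, and 1.91, 1.81 and 1.36 CPM under both. The TFF1 libraries of vehicle, E2 and the combination overlapped, and the anastrozole libraries overlapped vehicle but lay below all libraries given E2. No comparison of TFF1 passed: E2 against vehicle gave a log2 fold change of 0.10 with a 95% interval of -0.44 to 0.65, and anastrozole against vehicle -0.68 with standard error 0.34 (edgeR adjusted p = 0.32).

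WISP2 rose with E2 (log2 fold change 0.89, standard error 0.21, edgeR adjusted p = 0.000664) and the combination (log2 fold change 0.94, standard error 0.20, edgeR adjusted p = 0.000294) from a mean of 2.17 ± 0.322 CPM (SD, n = 3) in vehicle. AGR3, a protein disulfide isomerase of the secretory pathway, passed with the combination (log2 fold change 0.16, standard error 0.05, edgeR adjusted p = 0.0434), lost without vehicle b (log2 fold change 0.15), vehicle c (log2 fold change 0.13), anastrozole plus E2 a (log2 fold change 0.17), anastrozole plus E2 b (log2 fold change 0.19) or anastrozole plus E2 c (log2 fold change 0.13). As counted, its values were similar, without passing, under anastrozole alone (log2 fold change 0.18, standard error 0.06, edgeR adjusted p = 0.0693) and under E2 alone (log2 fold change 0.14, standard error 0.05, edgeR adjusted p = 0.0631), while with the GC trend removed they were 0.16 for the combination, 0.11 for anastrozole and 0.04 for E2. IGFBP5, AGR2 and THBS1, a matrix glycoprotein also named thrombospondin-1, passed in no comparison as counted. Their E2 intervals (95%, log2) were -0.10 to 0.01, -0.08 to 0.04 and -0.05 to 0.06 in that order.

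Of the 10 receptors and signalling proteins, E2 raised 3 (30%, against 6.06% of all genes) and lowered 1 (10%, against 5.95%), the combination raised 4 (40%, against 2.71%) and lowered 0 (against 2.33%), and anastrozole alone raised 0 (against 1.4%) and lowered 2 (20%, against 2.27%). Once the GC trend was removed anastrozole raised 0 and lowered 0 (against 1.52% and 1.37%), E2 raised 4 (40%, against 4.01%) and lowered 0 (against 3.56%), and the combination raised 4 (40%, against 3.37%) and lowered 0 (against 2.65%). RAPGEFL1 stood at 127, 127 and 124 CPM with vehicle, 118, 123 and 128 CPM under anastrozole, 160, 154 and 153 CPM under E2, and 156, 159 and 156 CPM under both. Both groups given E2 overlapped each other and lay above all vehicle and anastrozole libraries. RAPGEFL1 (ENSG00000108352, chr17:38333263-38351908, plus strand, GRCh37), a protein related to guanine nucleotide exchange factors of Rap, rose with E2 (log2 fold change 0.30, standard error 0.04, edgeR adjusted p = 4.77e-12) and the combination (log2 fold change 0.32, standard error 0.04, edgeR adjusted p = 5.01e-12). Anastrozole gave a lower level than E2 (log2 fold change -0.33, standard error 0.04, edgeR adjusted p = 8.99e-11).

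RERG stood at 69.5, 70.2 and 72 CPM with vehicle, 81.9, 81.4 and 73.7 CPM under anastrozole, 92.9, 84 and 88.2 CPM under E2, and 83.9, 86.2 and 81.5 CPM under both. All treated groups of RERG, a Ras-like inhibitor of growth named for its regulation by estrogen, lay above vehicle. RERG (ENSG00000134533, chr12:15260717-15501609, minus strand, GRCh37) rose with E2 (log2 fold change 0.32, standard error 0.05, edgeR adjusted p = 3.01e-09) and the combination (log2 fold change 0.25, standard error 0.05, edgeR adjusted p = 2.74e-05), while anastrozole alone gave 0.16 with standard error 0.06 and edgeR adjusted p = 0.0952. PKIB stood at 11.5, 10.1 and 10.3 CPM with vehicle, 10.3, 10 and 11.7 CPM under anastrozole, 15.5, 14 and 13.9 CPM under E2, and 13.7, 12.1 and 12.3 CPM under both. The E2 libraries of PKIB lay above all others, and those of the combination lay between E2 and vehicle. It rose with E2 (log2 fold change 0.44, standard error 0.11, edgeR adjusted p = 0.00143), and the combination against E2 gave -0.18 with standard error 0.10 (edgeR adjusted p = 0.31).

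CELSR1 stood at 317, 311 and 310 CPM with vehicle, 263, 271 and 305 CPM under anastrozole, 293, 301 and 281 CPM under E2, and 301, 309 and 313 CPM under both. CELSR1, an adhesion receptor of planar cell polarity, lay below vehicle in all anastrozole and E2 libraries, and the combination overlapped vehicle. It fell with anastrozole (log2 fold change -0.16, standard error 0.04, edgeR adjusted p = 0.0163), lost without vehicle a (log2 fold change -0.15), vehicle c (log2 fold change -0.17), anastrozole a (log2 fold change -0.12) or anastrozole b (log2 fold change -0.14), and with E2 (log2 fold change -0.10, standard error 0.03, edgeR adjusted p = 0.0288), lost without vehicle a (log2 fold change -0.09), vehicle c (log2 fold change -0.10), E2 a (log2 fold change -0.10) or E2 c (log2 fold change -0.07) and 0.02 with the GC trend removed. CELSR2 stood at 169, 164 and 172 CPM with vehicle, 145, 152 and 167 CPM under anastrozole, 158, 161 and 155 CPM under E2, and 177, 178 and 166 CPM under both. For CELSR2, its paralog, the combination lay above every E2 library but overlapped vehicle. The combination was higher than E2 (log2 fold change 0.14, standard error 0.03, edgeR adjusted p = 0.00323), and 0.03 with the GC trend removed, while neither group passed against vehicle (log2 fold change -0.09 with E2 and 0.05 with both).

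ADCY9 stood at 89.3, 88.7 and 88.6 CPM with vehicle, 73.7, 73.2 and 81.9 CPM under anastrozole, 85.6, 87.5 and 80 CPM under E2, and 85.4, 88.8 and 88.1 CPM under both. The anastrozole libraries of ADCY9, an adenylyl cyclase that makes cyclic AMP, lay below vehicle, and library c lay within the E2 range. ADCY9 fell with anastrozole (log2 fold change -0.22, standard error 0.06, edgeR adjusted p = 0.00763), lost without vehicle c (log2 fold change -0.22), anastrozole a (log2 fold change -0.19) or anastrozole b (log2 fold change -0.19), and gave -0.07 with E2 and -0.02 with both, neither past the threshold. RET, a receptor tyrosine kinase, rose with the combination (log2 fold change 0.32, standard error 0.09, edgeR adjusted p = 0.0146), lost without vehicle a (log2 fold change 0.25) or anastrozole plus E2 c (log2 fold change 0.28). CISH, an inhibitor of cytokine signalling, rose with the combination (log2 fold change 0.31, standard error 0.09, edgeR adjusted p = 0.0101), lost without vehicle a (log2 fold change 0.27) or anastrozole plus E2 c (log2 fold change 0.28). The call of CISH above E2 alone (log2 fold change 0.27) was lost without E2 c (log2 fold change 0.25), anastrozole plus E2 b (log2 fold change 0.26) or anastrozole plus E2 c (log2 fold change 0.23), and was 0.20 with the GC trend removed, which did not pass. SGK1 and SGK3, a pair of related kinases, passed in no comparison, and 44% of the exon bases of SGK3 are shared with a readthrough gene.

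Of the 9 transporters, channels, scaffolds and enzymes, E2, the combination and anastrozole alone each raised 1 and lowered 1 (11.1% in each direction). The shares of all genes were 6.06% raised and 5.95% lowered with E2, 2.71% and 2.33% with the combination, and 1.4% and 2.27% with anastrozole. In the fit without the GC trend E2 raised 1 and lowered 1 (11.1% each, against 4.01% and 3.56%), the combination raised 2 (22.2%, against 3.37%) and lowered 1 (11.1%, against 2.65%), and anastrozole raised 0 (against 1.52%) and lowered 1 (11.1%, against 1.37%). UGCG stood at 105, 114 and 112 CPM with vehicle, 125, 127 and 123 CPM under anastrozole, 135, 138 and 148 CPM under E2, and 124, 135 and 141 CPM under both. UGCG, the enzyme that makes glucosylceramide, was lowest with vehicle in every library, and anastrozole lay between vehicle and E2. UGCG (ENSG00000148154, chr9:114659094-114697649, plus strand, GRCh37) rose with anastrozole (log2 fold change 0.19, standard error 0.05, edgeR adjusted p = 0.0173), lost without vehicle a (log2 fold change 0.15), vehicle c (log2 fold change 0.19), anastrozole a (log2 fold change 0.18) or anastrozole b (log2 fold change 0.18), with E2 (log2 fold change 0.35, standard error 0.04, edgeR adjusted p = 9.1e-15) and with the combination (log2 fold change 0.27, standard error 0.04, edgeR adjusted p = 5.99e-08), a call lost with limma-voom. Anastrozole was lower than E2 (log2 fold change -0.16, standard error 0.04, edgeR adjusted p = 0.0361).

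ABCC5 stood at 175, 171 and 172 CPM with vehicle, 169, 167 and 162 CPM under anastrozole, 144, 151 and 144 CPM under E2, and 152, 157 and 157 CPM under both. ABCC5, an efflux transporter of the ABC family, was lower in every library given E2 than in any without, and the combination lay above E2 alone, by a difference that did not pass (log2 fold change 0.09, standard error 0.04, edgeR adjusted p = 0.142). It fell with E2 (log2 fold change -0.24, standard error 0.04, edgeR adjusted p = 5.18e-08) and with the combination (log2 fold change -0.15, standard error 0.04, edgeR adjusted p = 0.00486), a direction opposite to the list's name. SLC9A3R1 stood at 383, 399 and 430 CPM with vehicle, 319, 337 and 388 CPM under anastrozole, 386, 402 and 386 CPM under E2, and 418, 437 and 435 CPM under both. For SLC9A3R1, a PDZ-domain scaffold also named NHERF1, anastrozole library c lay within the vehicle range and the combination lay above E2 alone. Another gene of the count table shares 3.08% of its exon bases. Anastrozole against vehicle passed (log2 fold change -0.21, standard error 0.04, edgeR adjusted p = 0.000214) though the groups overlapped, and was lost without vehicle c (log2 fold change -0.17) or anastrozole a (log2 fold change -0.15). It was -0.11 with the GC trend removed. The combination was above E2 (log2 fold change 0.14, standard error 0.03, edgeR adjusted p = 0.000648), and 0.03 with the GC trend removed.

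KCNK5, a potassium channel, was higher with the combination than with E2 (log2 fold change 0.31, standard error 0.09, edgeR adjusted p = 0.0124), lost without E2 b (log2 fold change 0.20), anastrozole plus E2 a (log2 fold change 0.26) or anastrozole plus E2 c (log2 fold change 0.28), and was 0.22 with the GC trend removed, which did not pass. PDZK1, another PDZ-domain scaffold, had means of 34 ± 2.18 CPM with vehicle and 37.9 ± 2.62 CPM with E2 (SD, n = 3), and E2 gave log2 fold change 0.16, standard error 0.06, edgeR adjusted p = 0.0906. CA12, a carbonic anhydrase, gave log2 fold change 0.06, standard error 0.03, edgeR adjusted p = 0.238 with E2. SLC7A2, an amino acid transporter, and ELOVL2, a fatty acid elongase, had means of 1.04 and 1.96 CPM over the 12 libraries and passed in no comparison.

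Of the 7 chaperones, ubiquitin, repair and structural genes, E2 raised 5 (71.4%, against 6.06% of all genes) and lowered 1 (14.3%, against 5.95%), the combination raised 4 (57.1%, against 2.71%) and lowered 1 (14.3%, against 2.33%), and 0 passed with anastrozole alone (against 1.4% raised and 2.27% lowered). Taking out the GC trend gave 4 raised (57.1%, against 4.01%) and 1 lowered (14.3%, against 3.56%) with E2, 5 raised (71.4%, against 3.37%) and 1 lowered (14.3%, against 2.65%) with the combination, and 0 with anastrozole (against 1.52% and 1.37%). RBBP8 stood at 86.1, 86.4 and 84.3 CPM with vehicle, 93.9, 83 and 85.4 CPM under anastrozole, 106, 113 and 112 CPM under E2, and 98.2, 103 and 108 CPM under both. RBBP8, a DNA end resection factor also named CtIP, was higher in every library given E2 than in any without. RBBP8 (ENSG00000101773, chr18:20378224-20606451, plus strand, GRCh37) rose with E2 (log2 fold change 0.36, standard error 0.04, edgeR adjusted p = 8.98e-14) and the combination (log2 fold change 0.27, standard error 0.05, edgeR adjusted p = 7.02e-07). SIAH2 stood at 112, 120 and 121 CPM with vehicle, 116, 126 and 119 CPM under anastrozole, 133, 140 and 138 CPM under E2, and 135, 140 and 134 CPM under both. SIAH2, a ubiquitin ligase, showed the same separation, with E2 and combination libraries overlapping. SIAH2 rose with E2 (log2 fold change 0.22, standard error 0.04, edgeR adjusted p = 3.74e-06) and the combination (log2 fold change 0.21, standard error 0.04, edgeR adjusted p = 3.71e-05).

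FKBP4 stood at 626, 597 and 625 CPM with vehicle, 570, 574 and 586 CPM under anastrozole, 641, 666 and 663 CPM under E2, and 678, 679 and 671 CPM under both. FKBP4, a cochaperone of steroid receptors with HSP90, was lowest with anastrozole, then vehicle, then E2 and then the combination, with no overlap between groups. It rose with E2 (log2 fold change 0.09, standard error 0.03, edgeR adjusted p = 0.0199), lost without vehicle b (log2 fold change 0.07), E2 b (log2 fold change 0.08) or E2 c (log2 fold change 0.09), and with the combination (log2 fold change 0.13, standard error 0.03, edgeR adjusted p = 0.00176), and was lower with anastrozole than with E2 (log2 fold change -0.18, standard error 0.04, edgeR adjusted p = 0.000245). Anastrozole against vehicle did not pass for FKBP4. HSPB8 stood at 58.2, 54.8 and 55.8 CPM with vehicle, 56.9, 53.7 and 52.4 CPM under anastrozole, 63.6, 64 and 63.8 CPM under E2, and 65.1, 61 and 61.1 CPM under both. The HSPB8 libraries given E2 all lay above those without, and the combination overlapped E2. HSPB8 rose with E2 (log2 fold change 0.18, standard error 0.05, edgeR adjusted p = 0.00852).

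TPD52L1 rose with E2 (log2 fold change 0.15, standard error 0.05, edgeR adjusted p = 0.0235), lost without vehicle b (log2 fold change 0.11), vehicle c (log2 fold change 0.14), E2 b (log2 fold change 0.10) or E2 c (log2 fold change 0.13), and with the combination (log2 fold change 0.20, standard error 0.05, edgeR adjusted p = 0.00185), lost without anastrozole plus E2 c (log2 fold change 0.15). ANXA9, a member of the annexin family, fell with E2 (log2 fold change -0.21, standard error 0.04, edgeR adjusted p = 8.29e-06) and with the combination (log2 fold change -0.16, standard error 0.04, edgeR adjusted p = 0.00478), the latter lost without anastrozole plus E2 c (log2 fold change -0.14). KRT13, a keratin, passed in no comparison. Members that passed in none of the 6 comparisons as counted numbered 12, namely XBP1, TFF1, IGFBP5, THBS1, AGR2, SGK1, SGK3, PDZK1, CA12, SLC7A2, ELOVL2 and KRT13.

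**Figure D5:**
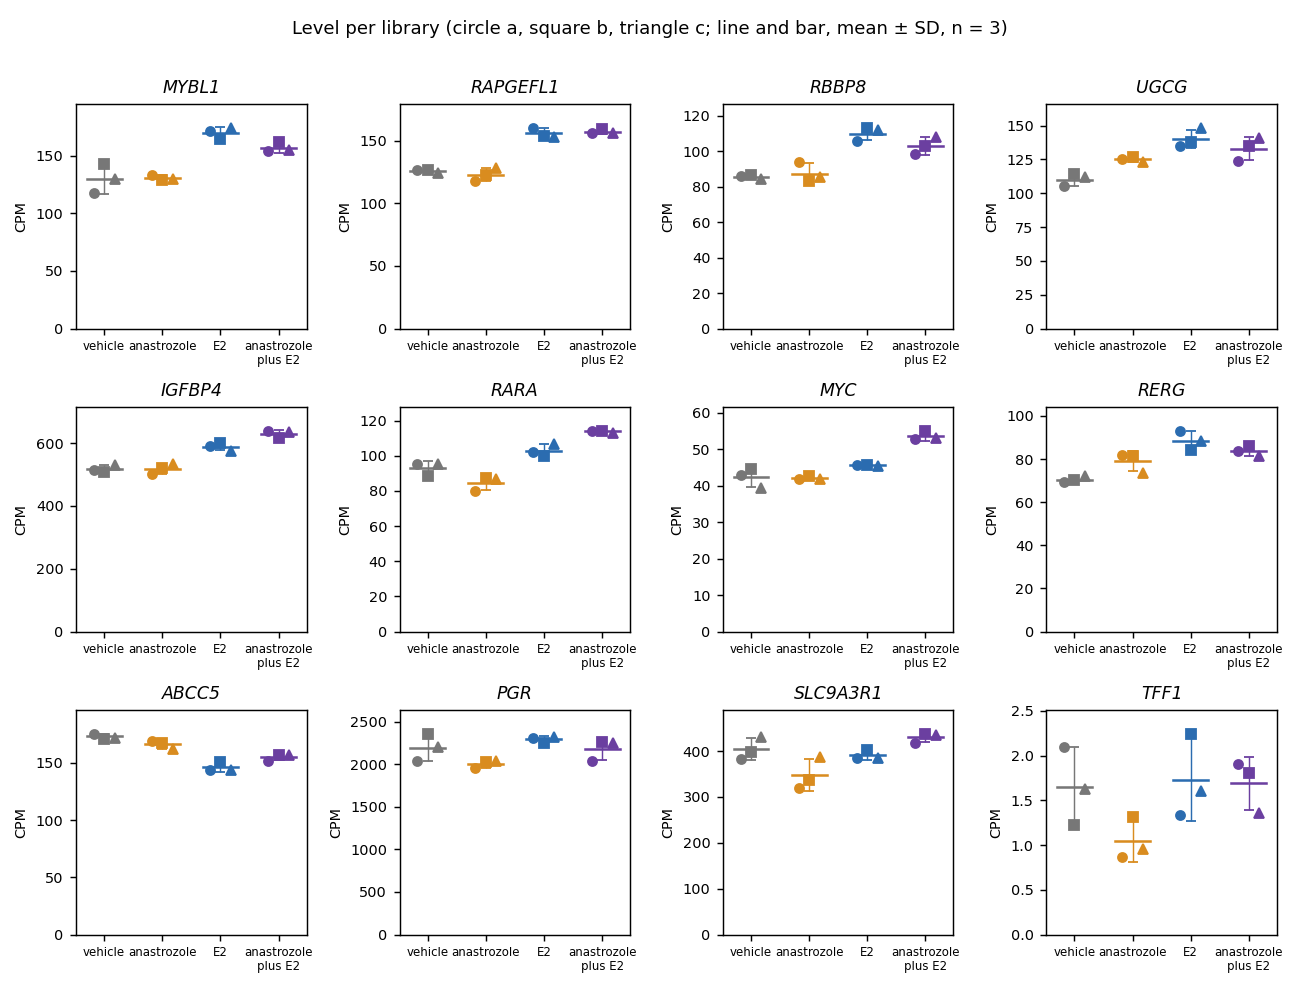
CPM of each library for selected genes, by group, with 3 libraries a group. MYBL1, RAPGEFL1 and RBBP8 lie higher in every library given E2, and MYC lies highest with the combination.

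RAPGEFL1, RARA and IGFBP4 lie on chromosome 17 within 281 kb (GRCh37), and E2 raised all 3, a cluster singled out after its values were seen. Between RAPGEFL1 and IGFBP4 the table holds 5 other genes with counts, of which E2 raised 1 (against 6.06% of all genes) and lowered 0 (against 5.95%). The raised gene was TOP2A, a topoisomerase of dividing cells (log2 fold change 0.22, standard error 0.03, edgeR adjusted p = 2.43e-12). WIPF2, between RAPGEFL1 and RARA, gave a log2 fold change of 0.03 with standard error 0.04 (edgeR adjusted p = 0.718).

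In a further list of 42 estrogen response genes, E2 raised 10 (23.8%, against 6.06% of all genes) and lowered 3 (7.14%, against 5.95%), and the combination raised 11 (26.2%, against 2.71%) and lowered 1 (2.38%, against 2.33%), by edgeR's test. Anastrozole raised 0 and lowered 3 (7.14%, against 2.27%). Median log2 fold changes were 0.13, 0.10 and -0.02 for E2, the combination and anastrozole, against 0.00 for all genes. Directly, 4 were higher with the combination than with E2 (9.52%, against 3.23%) and 1 lower (2.38%, against 3.51%), and 7 were lower with anastrozole than with E2 (16.7%, against 0.705%) and 0 higher. The interaction was above 0 for 5 (11.9%, against 5.93%) and below 0 for 3 (7.14%, against 4.93%), 3 in all with the GC trend removed. The anastrozole count of 3 was 0 without vehicle a, 1 without vehicle b, vehicle c, anastrozole a or anastrozole b, and 7 without anastrozole c. The count of 5 between the combination and E2 was 3 without E2 c, and that of 7 between anastrozole and E2 was 3 without E2 b. GREB1 stood at 508, 532 and 525 CPM with vehicle, 470, 466 and 482 CPM under anastrozole, 565, 580 and 564 CPM under E2, and 594, 598 and 585 CPM under both. The groups of GREB1, a coactivator of ERα, followed 1 order, anastrozole lowest, then vehicle, E2 and the combination, with no overlap. With 1 library left out, anastrozole against vehicle passed for GREB1 only without anastrozole c. Otherwise edgeR adjusted p ran from 0.053 to 0.247. E2 against vehicle passed for GREB1 with any 1 library left out (log2 fold change 0.11 to 0.14, edgeR adjusted p from 0.000194 to 0.0266). The combination raised GREB1 against vehicle (log2 fold change 0.18, standard error 0.03, edgeR adjusted p = 4.26e-06), and anastrozole against E2 gave log2 fold change -0.26, standard error 0.04, edgeR adjusted p = 2.1e-09. OLFM1, a secreted olfactomedin, rose with E2 (log2 fold change 0.36) and the combination (0.30), and MAPT, the microtubule protein tau, did so at 0.21 and 0.27.

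Of 5 genes listed as repressed by estrogen, E2 lowered 3 (60%, against 5.95% of all genes) and raised 0 (against 6.06%), the combination lowered 2 (40%, against 2.33%) and raised 0 (against 2.71%), and 0 passed with anastrozole alone (against 1.4% raised and 2.27% lowered), by edgeR's test. ERBB2, the HER2 receptor, fell with E2 (log2 fold change -0.37, standard error 0.03, edgeR adjusted p = 1.96e-25) and with the combination (log2 fold change -0.18, standard error 0.04, edgeR adjusted p = 7.02e-05), and was higher with the combination than with E2 (log2 fold change 0.20, standard error 0.03, edgeR adjusted p = 4.66e-07). BCAS1 fell with E2 (log2 fold change -0.35, standard error 0.05, edgeR adjusted p = 2.78e-09) and with the combination (log2 fold change -0.35, standard error 0.05, edgeR adjusted p = 3.07e-09), and TGFB3, a growth factor, fell with E2 (log2 fold change -0.23, standard error 0.05, edgeR adjusted p = 0.000123). Directly, 3 of the 5 were higher with anastrozole than with E2 (60%, against 0.62% of all genes), 1 was higher with the combination than with E2 (20%, against 3.23%), and the interaction was above 0 for 1, ERBB2 (20%, against 5.93%). In the list of receptors and aromatase, ESR1 fell with E2 (log2 fold change -0.14, standard error 0.04, edgeR adjusted p = 0.00381) and ESR2, which encodes ERβ, rose (log2 fold change 0.66, standard error 0.24, edgeR adjusted p = 0.0455), and 0 of its 4 genes passed in any other comparison.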

How the data were processed

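RNA-seq counts were analysed in 12 T47D libraries, 3 in each of 4 groups. The counts are whole numbers per gene as the authors deposited them, without normalization. The submitters' processing notes give alignment to hg19 with TopHat2 2.0.14 and Bowtie2 2.2.6 and counting with HTSeq, whose version, strand setting and annotation are not stated. Between 32.7% and 33.5% of reads in the table were counted on genes and between 58.6% and 59.9% lay on no feature, a line left out of library sizes and tests.

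The 4238 genes without a count were removed. In R 4.3.3, edgeR 4.0.16 normalised the counts by TMM and applied its robust quasi-likelihood test, 2-sided, to the 6 libraries of each comparison, or all 12 for the interaction. P-values were adjusted by Benjamini-Hochberg over 21132 genes, with a threshold of 0.05. For most genes edgeR's estimate of spread was pooled over genes. Library depths stand in the text, and a count of 3 was taken as the floor.

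Alternatives were DESeq2 1.42.0 (size factors, or its test), limma-voom (limma 3.58.1), edgeR's filterByExpr, all 12 libraries in 1 fit, the replicate letter as a block, each library left out, and removal of each library's lowess trend on GC content (span 0.5, genes of at least 3 log2 CPM). Positions and GC content are on GRCh37, promoters on GRCh38.p14. Members and the lists (further estrogen response, estrogen-repressed, receptor and aromatase, hypoxia, and luminal, basal, fibroblast, leukocyte and endothelial markers) were chosen with earlier results of these data known. Library values are given for TFF1, PGR, GREB1, the 4 smallest adjusted p per comparison, and members called in opposite directions in 2 comparisons. The fits were also tried on simulated counts, and no result given here rests on that.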

Additional observations from a re-analysis of the deposited data

Results flagged for a closer look

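Each of these members was picked out because its interaction of anastrozole and E2 passed edgeR's test as counted. Values are log2 interactions, first as counted and then with each library's GC trend removed, where none of the 10 passed; groups of 3 were not tested for outlying libraries. The interaction of RARA was 0.28 as counted and 0.03 with the trend removed. CELSR1 had an interaction of 0.24 as counted, and it was 0.02 after the trend was removed. For CELSR2 the interaction was 0.26, or 0.04 without the GC trend. The interaction of RERG was -0.24 as counted and -0.10 with the trend removed. ADCY9 had an interaction of 0.27 as counted, and it was 0.12 after the trend was removed. For CISH the interaction was 0.47, or 0.33 without the GC trend. The interaction of SLC9A3R1 was 0.35 as counted and 0.13 with the trend removed. KCNK5 had an interaction of 0.55 as counted, and it was 0.37 after the trend was removed. For PTGES the interaction was 0.20, or 0.05 without the GC trend. The interaction of UGCG was -0.26 as counted and -0.12 with the trend removed. Over these 10, edgeR adjusted p as counted ran from 1.3e-08 (SLC9A3R1) to 0.0446 (PTGES), and with the trend removed from 0.0563 (SLC9A3R1) to 0.996 (CELSR1).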

How the results depend on the processing

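For the 23 genes given in full, 69 gene and comparison values passed the threshold as fitted. Over the settings that kept all libraries, 446 of 544 such values kept direction and side of the threshold, 94 no longer passed and 4 changed sign, while of 537 values not called 517 did not pass either, whatever their sign, 16 passed in the same direction and 4 passed in the other. With 1 library left out, 385 of 462 called values and 490 of 504 others kept their side. Changes of sign in which the value passed as fitted or under the alternative came with the GC trend removed: IGFBP4 was 0.12 for anastrozole against vehicle, -0.02 for the combination against E2 and -0.14 for the interaction, and CELSR1 was 0.02 for E2 against vehicle, and each was the same with the replicate block added. Values that passed in neither fit also changed sign, such as PGR for E2 against vehicle (0.06 as fitted, -0.01 with the trend removed).

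Members called for anastrozole against vehicle (5 as fitted) were 2 with filterByExpr, 2 with DESeq2's test and 0 with limma-voom (all genes: 776 as fitted, then 419, 238 and 15). For the combination against vehicle (22) limma-voom gave 13 (all genes 1065, then 347). For the combination against E2 (8) the counts were 4 with DESeq2's test, 2 with limma-voom, 5 with all 12 libraries and 1 with the GC trend removed (all genes 1424, then 647, 451, 824 and 196). For anastrozole against E2 (16) they were 9 with DESeq2's test and 8 with limma-voom (all genes 280, then 107 and 70), and for the interaction (10) 5 with the GC trend removed (all genes 2295, then 554). The cause was not tested.

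Leaving out 1 library gave 0 to 9 members for anastrozole against vehicle, 17 to 21 for E2 against vehicle, 15 to 21 for the combination against vehicle, 4 to 7 for the combination against E2, 6 to 21 for anastrozole against E2 and 8 to 12 for the interaction. Values outside 1.5 times the count were, for anastrozole against vehicle, 3 without vehicle a, 0 without vehicle c, 0 without anastrozole a, 1 without anastrozole b and 9 without anastrozole c. They were 5 without E2 c and 4 without anastrozole plus E2 c for the combination against E2, and 10 without anastrozole b, 6 without E2 b and 8 without E2 c for anastrozole against E2. Calls over all genes were not counted in these fits.

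Correlations of same-lettered libraries ran from -0.2 to 0.18, with no single sign over the comparisons. They were 0.14, 0.067 and 0.035 for the combination against vehicle, and -0.053, -0.079 and -0.059 for E2 against vehicle. The check gave no clear pairing by letter and cannot exclude one. With the letter as a replicate block the members called were 5, 19, 24, 8, 11 and 9 in the order anastrozole against vehicle, E2 against vehicle, combination against vehicle, combination against E2, anastrozole against E2 and interaction. All genes called were 823, 2207, 1439, 1487, 180 and 2218 in the same order. With block and GC trend removal together, the combination against E2 gave 1 and the interaction 6, and all genes called numbered 202 and 654.

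The hypoxia list and the further estrogen response list were run under the same alternatives, a choice made after seeing the data. Depth limits the 7 members under 3 CPM, whose intervals are wide, and the spread between anastrozole a and c was the largest within a group (chi-square divided by degrees of freedom 4.83, against 1.28 for the closest replicates).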

Other observations

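Of 12 hypoxia genes, a list chosen with earlier results of these data known, anastrozole raised 10 (83.3%, against 1.4% of all genes), E2 10 (83.3%, against 6.06%) and the combination 11 (91.7%, against 2.71%) against vehicle by edgeR's test. None was lowered (against 2.27%, 5.95% and 2.33% of all genes), and median log2 fold changes were 0.30, 0.40 and 0.34. These comparisons share the vehicle libraries. With limma-voom only 6 of all genes were raised by anastrozole, so the count of 10 does not hold under that test. Directly, 2 were higher (16.7%, against 3.23%) and 2 lower (16.7%, against 3.51%) with the combination than with E2, 2 were lower with anastrozole than with E2 (16.7%, against 0.705%) and 0 higher (against 0.62%), and the interaction was below 0 for 8 (66.7%, against 4.93%) and above 0 for 0 (against 5.93%). These values are as counted, and all genes called for the interaction went from 2295 to 554 with the GC trend removed. VEGFA, a growth factor for blood vessels, gave 0.38 with anastrozole, 0.39 with E2 and 0.36 with the combination, and NDRG1, a stress-response gene, gave 0.22, 0.09 and 0.20.

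Among the 6 luminal markers, E2 lowered 4 (ESR1, FOXA1, KRT8 and CDH1; 66.7%, against 5.95% of all genes), anastrozole and the combination called 0 against vehicle, and the interaction was above 0 for 1 (16.7%, against 5.93%). The basal markers had 0 called in every comparison. Fibroblast markers summed to between 80.4 and 100 CPM, almost all from COL1A1. Of these, 1 was higher with the combination than with E2 (25%, against 3.23% of all genes), 1 was above 0 in the interaction (25%, against 5.93%), and 0 passed elsewhere. The leukocyte and endothelial markers summed to between 3.35 and 7.14 CPM, mostly CD68. Of these, 1 was raised by anastrozole (25%, against 1.4% of all genes), 1 was raised by E2 (25%, against 6.06%), 1 was below 0 in the interaction (25%, against 4.93%), and 0 passed elsewhere.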
